A study of Mus musculus with 8 samples.

Results

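Pancreatic T cells from NOD mice with active diabetes were compared with those from mice at diabetes onset, separately for CD4 and CD8 cells. The cells were chosen from the deposited single-cell matrices by a gate on transcripts. Barcodes passed with 500 or more genes seen and mitochondrial transcripts below 10%, and a passing cell was called a T cell with at least 2 unique molecular identifiers (UMIs, each 1 captured RNA molecule) over Cd3d, Cd3e, Cd3g, Trac, Trbc1 and Trbc2. A T cell with at least 1 Cd4 UMI and none of Cd8a or Cd8b1 was gated as CD4, and one with at least 1 Cd8a or Cd8b1 UMI and none of Cd4 as CD8. This left 13256 gated cells in the active and onset libraries, out of 54040 gated cells and 80470 barcodes in all 8 libraries of the series. The active library gave 2963 CD4-gated and 2897 CD8-gated cells, and the onset library 5163 and 2233.

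NOD mice are an inbred strain that develops autoimmune diabetes without intervention, as T cells infiltrate the islets and the insulin-producing beta cells are lost. CD8 T cells recognise peptides on class I major histocompatibility molecules, kill target cells with perforin, granzymes and Fas ligand, and release interferon-gamma and chemokines. CD4 T cells recognise peptides on class II molecules and steer other immune cells through cytokines and CD40 ligand. Type I interferon switches on a set of antiviral genes in most cells, recent receptor signals or stress switch on Fos and related early genes, and unfolded protein switches on chaperones.

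The active mice were described as having blood glucose above 600 mg/dl and the onset mice 250 mg/dl, both harvested on day 1 without drug or vehicle. All labels name female NOD mice, 3 to 4 months old, whose diabetes was spontaneous and of new onset, a wording the active library carries as well, while the treatment text gives an upper age of 5 months. The vehicle libraries, 3 in number, came from mice at 200 to 300 mg/dl given the vehicle alone (ethanol, Tween 20 and PEG300) and harvested on days 2, 3 and 4, and the remaining 3 libraries from mice given nutlin-3 at 50 mg/kg with MK-1775 at 25 mg/kg. Cells were sorted as CD45+ CD3+ TCR-beta+, frozen, and made into 10x Genomics 3′ libraries, with the number of mice behind each library not stated. There was 1 library per group, so no difference between active and onset was tested, and every interval printed is a 95% exact interval of counting error alone. An interval of a fold difference takes each UMI as an independent draw, so it leaves out the spread between cells. No interval holds the spread between mice.

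Depth differed between the compared libraries. The median gated CD4 cell held 6199 UMIs in the active and 5054 in the onset library, and the median CD8 cell 7289 and 5635. Summed over cells, the gates held 19298626 and 22238214 UMIs in the active library and 27675821 and 12989962 in the onset library. Libraries shared few barcodes, 20 between active and onset or 0.246% of the smaller library. Doublets were kept, because the doublet caller marked only 2 barcodes of the active and 0 of the onset library at its own threshold. Xist, the X-inactivation transcript of female cells, stood at 564 CPM (UMIs per 1000000 UMIs of the gate) in active and 558 in onset CD4-gated cells, and at 0.356, 0.664 and 401 in the vehicle libraries of days 2, 3 and 4. The Y-linked genes Ddx3y, Uty, Kdm5d and Eif2s3y summed to 254 and 199 CPM in the libraries labelled day 2 and day 3 vehicle, to 0 in that of day 4, and to 0.156 and 0.108 in active and onset. The libraries labelled day 2 and day 3 vehicle thus go against their label of female mice, while active, onset and day 4 vehicle do not. The vehicle libraries serve below only to show how far libraries of diabetic mice lay from each other.

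The 2 gates were present in different proportions. CD8-gated cells made up 49.4% (48.1 to 50.7%) of gated cells in active and 30.2% (29.1 to 31.3%) in onset diabetes. The vehicle libraries gave 36.0%, 51.2% and 37.7% on days 2, 3 and 4, a range that holds the active value and lies above the onset value. T cells with neither transcript made up 13.2% in active and 22.9% in onset, and cells with both 9.68% and 6.61%. With every cell thinned to 2000 UMIs before gating, the CD8 share was 60.4% in active and 41.4% in onset, so active stayed above onset at equal depth. Outside the genes that set the gates, CD40 ligand (Cd40lg) marked the CD4 gate, at 68.2 CPM in active and 94.4 in onset against 2.88 and 9.39 in the CD8 gate. Trac, the constant part of the T cell receptor alpha chain, stood at 818 and 808 CPM in the CD4 gate and at 667 and 660 in the CD8 gate. Insulin transcripts were nearly absent, with Ins1 at 0 UMIs in both gates of both libraries and Ins2 at no more than 0.462 CPM.

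Across genes, the CD4 gate differed little and the CD8 gate leaned towards lower values in active diabetes. Genes with a mean of at least 20 CPM over active and onset were compared, 5221 in the CD4 and 5246 in the CD8 gate, and a gene at least 2-fold apart was counted. In CD4-gated cells 17 genes were at least 2-fold higher in active (0.326% of those compared) and 12 lower (0.23%). In CD8-gated cells 12 were higher (0.229%) and 50 lower (0.953%), 1 of the 50 a T cell receptor segment gene that is counted and not named. With mitochondrial, ribosomal and receptor segment genes left out of the total, the CD8 split was 25 higher and 56 lower, with 45 of the 50 among the latter. The 20 CPM minimum was then taken on the smaller total, so less abundant genes entered as well. The median log2 ratio of active over onset was -0.02 in the CD4 and -0.08 in the CD8 gate, and 36.0% of CD8-gate genes lay above 0. The number of genes at least 2-fold apart between active and onset, 29 in CD4 and 62 in CD8 cells, was within the range found between pairs of vehicle libraries. Those pairs gave 14 to 145 genes in the CD4 and 41 to 141 in the CD8 gate, the lowest values between days 2 and 3 and the others in pairs with the day 4 library.

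Much of the difference was shared by both gates. Of the 5003 genes compared in both, 3985 had the same sign, and the log2 ratios correlated across genes at r = 0.825, a description in which each gene's ratios come from the same library pair and genes are not replicates. Of 73 genes counted in either gate, 7 were higher and 11 lower in both. The 7 were the interferon response genes Ifit1, Isg15, Rtp4 and Ddx60 with Hnrnpa0, Pabpn1 and Tmem14c, and the 11 were Hsph1, Stip1, Chordc1, Ahsa2, Fos, Tnfaip3, Dusp5, Gadd45b, mt-Atp8, mt-Nd4l and Gm10076. The CD8 gate moved along, by at least 1.5-fold in the same direction, for 16 of the 17 genes higher in CD4 cells, Irf7 being the exception, and for all 12 lower ones. The CD4 gate moved along for all 12 genes higher in CD8 cells but for 27 of the 50 lower ones. Of the others, 22 differed by under 1.5-fold in the CD4 gate, among them Ctla4, Rgs1, Fasl, Gzmk, Ccl4, Ccl5, Klrk1, Klrc2, Ccr2, Cxcr6, Itga1, Junb, S100a4, S100a6, Lgals1, Lgals3, Anxa2, Casp1, Acadl, Gimap7 and Ptms. Klrc1 went the opposite way, but like Itga1 and Klrc2 it was barely detected in CD4-gated cells, at 0.363 and 0.181 CPM. The 20 CPM minimum was not required of the other gate in these counts. Ctla4, Fasl, Ccl4, Ccr2, Cxcr6 and Anxa2 were also under it in CD4-gated cells, and Klrk1 was at 1.45 and 1.81 CPM. Klre1, among the 27, had 2 and 14 UMIs in active and onset CD4-gated cells. For such genes the counts do not show whether CD4 cells shared the difference. Rgs1, Ccl5, Junb, S100a4 and S100a6 passed the minimum in both gates. Of the genes compared in both gates, 5 had log2 ratios at least 1 apart between the gates, Rgs1, Ccl5, Ifit1, S100a4 and S100a6.

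**Figure D1:**
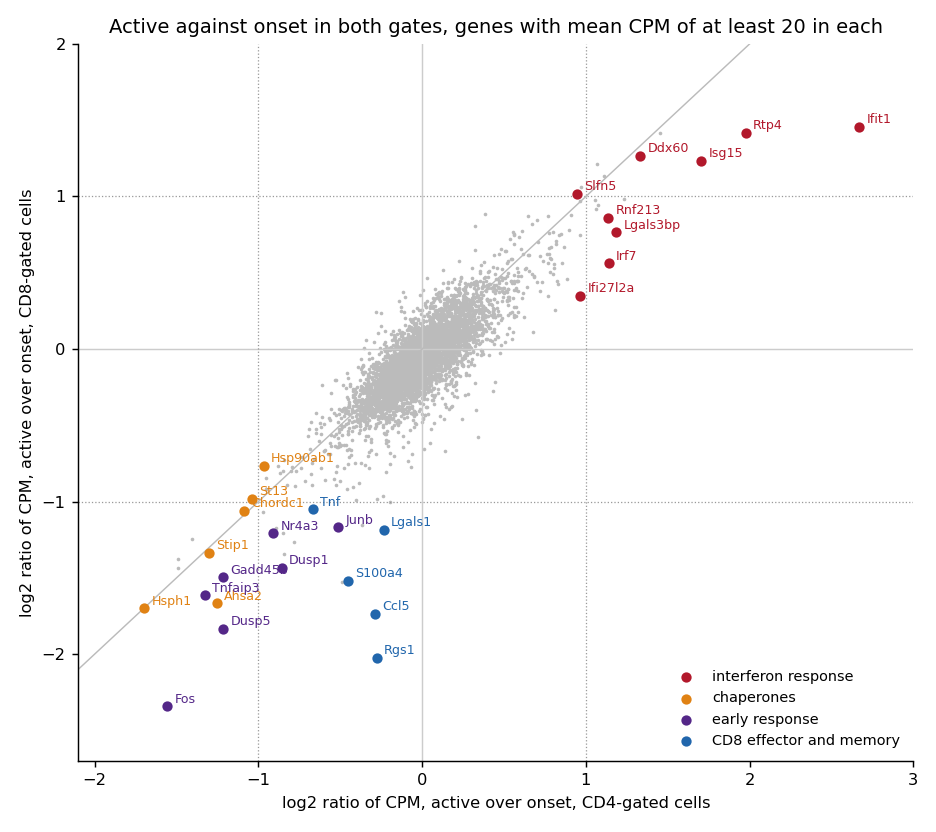
Each point is a gene with a mean of at least 20 CPM in both gates (5003 genes), placed by its log2 ratio of active over onset in CD4-gated cells (x axis) and CD8-gated cells (y axis), with dotted lines at 2-fold and a grey line where the ratios are equal. Interferon response genes lie to the upper right, most of them below the line, chaperones near the line to the lower left, and Ccl5, Rgs1, S100a4 and Lgals1 far below 0 on the CD8 axis alone.

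Many genes of CD8 effector function were lower in active diabetes, among them the secreted mediators Ifng, Ccl3 and Ccl4 by over 7-fold and Tnf and Xcl1 by less. Ifng, which encodes interferon-gamma, stood at 13.4 CPM in active and 114 in onset CD8-gated cells, with the vehicle libraries at 25.8, 20.5 and 69.5 on days 2, 3 and 4. It was 8.50-fold lower in active (7.50 to 9.66), with active below and onset above all 3 vehicle libraries. Ccl3 and Ccl4 encode inflammatory chemokines. Ccl3 was at 8.32 CPM in active and 66.7 in onset, against 14.1 to 32.9 in vehicle, and was 8.01-fold lower (6.83 to 9.44). Ccl4 was at 33.4 and 240 CPM, against 76.8 to 214 in vehicle, and was 7.18-fold lower (6.63 to 7.79). Both thus repeated the order of Ifng, active lowest and onset highest of the 5 libraries. Ccl5, a chemokine of memory CD8 cells, was at 1136 CPM in active and 3788 in onset, and at 2367, 972 and 1565 in vehicle. Its 3.33-fold difference (3.28 to 3.38) placed onset above the vehicle libraries and active among them. Tnf, which encodes tumour necrosis factor, was at 22.2 and 46.0 CPM (2.07-fold lower, 1.84 to 2.34) with vehicle at 21.6 to 41.1, and the chemokine gene Xcl1 at 41.4 and 91.3 with vehicle at 31.9 to 97.4. In the CD4 gate Ccl5 was at 135 and 165 CPM, and Ifng at 3.47 and 9.94, under the 20 CPM needed to compare.

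Killer cell receptors and death ligands followed. Of the 18 members of a list of cytotoxic and effector genes, 14 were abundant enough to compare in the CD8 gate. Of these, 9 were at least 2-fold lower and 0 higher, beside 0.953% lower over all genes compared. The median log2 ratio was -1.76 beside -0.08 for all genes. Fasl, the ligand that triggers death through Fas, was at 9.04 CPM in active and 37.3 in onset (4.13-fold lower, 3.50 to 4.89), with vehicle at 7.03 to 21.7. Klrk1, which encodes the activating receptor NKG2D, was at 29.3 and 111 CPM (3.80-fold, 3.46 to 4.17), with vehicle at 23.6 to 70.0. The granzyme gene Gzmk was at 15.8 and 55.7 CPM (3.53-fold, 3.10 to 4.02), with vehicle at 15.4 to 40.8. For these 3 genes onset lay above all vehicle libraries and active within their range. Klrc1 and Klrc2 encode close NKG2 paralogs between which reads can be split, and were 3.44-fold and 4.40-fold lower. Some other genes of killing differed by under 1.5-fold. Prf1, which encodes perforin, stood at 74.9 CPM in active and 76.8 in onset, Klrd1, the partner chain of the NKG2 receptors, at 164 and 170, and the granule genes Nkg7 at 660 and 907 and Ctsw at 291 and 358. The granzyme genes Gzma and Gzmb, under 20 CPM and not compared, were at 4.63 and 17.1 CPM and at 5.31 and 10.5, both lower in active. In the CD4 gate 5 of the 18 were abundant enough to compare, with 0 at least 2-fold apart and a median of -0.28. The 2 medians are over different genes. Fasl and Ifng, the latter also lower in active CD4-gated cells, were under 20 CPM there and not among the 5.

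Memory and tissue-retention genes were lower in active CD8-gated cells as well. Of 11 members of a list of S100, galectin and annexin genes of memory cells, 10 were compared. All 10 were below 0 and 5 at least 2-fold lower, with a median log2 ratio of -0.98. Beside them, 36.0% of all genes compared in the CD8 gate lay above 0 and 0.953% were 2-fold lower. S100a4, a calcium-binding protein of antigen-experienced cells, was at 145 CPM in active and 414 in onset, with vehicle at 162, 75.5 and 142. S100a6 was at 199 and 573 CPM, and Lgals1, which encodes galectin-1, at 149 and 338. In the CD4 gate S100a4 was at 43.9 and 60.0 CPM and Lgals1 at 119.5 and 141, so the step was smaller there. Among 9 residency genes, 6 were compared and 3 were at least 2-fold lower, namely Rgs1, Itga1 and Cxcr6. Rgs1, a brake on chemokine signalling in tissue T cells, was at 41.4 CPM in active and 169 in onset, with vehicle at 89.2, 66.1 and 305. Itga1, the alpha chain of the collagen receptor CD49a, was at 25.0 and 78.0 CPM, against 11.8 to 27.9 in vehicle. The inflammatory chemokine receptors Ccr2 and Cxcr6 were 2.81-fold and 2.04-fold lower. Itgae, the integrin CD103, and Cd69 differed by 1.20-fold and 1.34-fold. Ctla4, an inhibitory receptor, was at 6.925 CPM in active and 37.3 in onset CD8-gated cells, a 5.39-fold difference (4.49 to 6.51), with vehicle at 8.81 to 59.8.

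**Figure D2:**
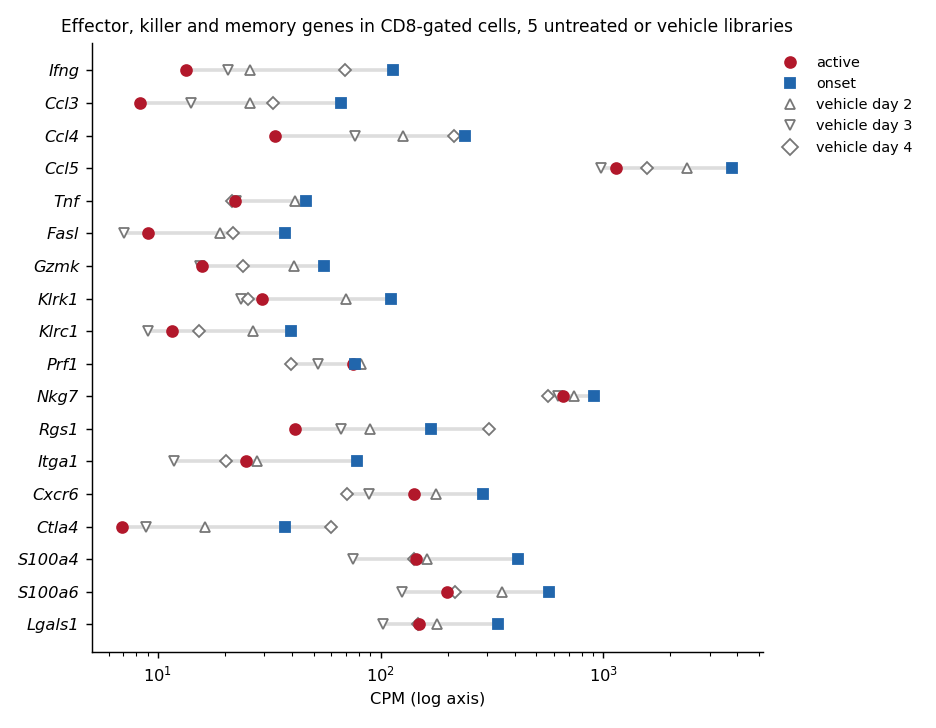
CPM in CD8-gated cells on a log axis for 18 effector, killer, residency and memory genes, with 1 point per library (red circle active, blue square onset, open grey symbols the vehicle libraries of days 2, 3 and 4). Onset is the highest of the 5 libraries for all genes shown except Prf1, Rgs1 and Ctla4, and active is the lowest for Ifng, Ccl3, Ccl4, Rgs1 and Ctla4.

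Naive and central memory genes were close to equal. Tcf7, a transcription factor of naive and memory cells, stood at 471 and 431 CPM in CD4-gated and at 329 and 304 in CD8-gated cells of active and onset. Over the 12 genes of that list, 0 were 2-fold apart in either gate and the median log2 ratio was 0.13 in both. In bulk sums of this kind, fewer cells of a type and less RNA per cell cannot be told apart. CD8-gated cells were also split by Ccl5, a choice made after its values were seen, which does not settle this, because a cell with less Ccl5 RNA leaves the class. A cell was Ccl5-positive with at least 2 Ccl5 UMIs after thinning to 2000 UMIs, which left out 13 active and 23 onset cells that held fewer. Neither Ccl5 itself nor the size of the classes is a finding apart from the Ccl5 difference already given.

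The Ccl5-positive class held 12.8% (11.6 to 14.0%) of CD8-gated cells in active and 28.3% (26.4 to 30.2%) in onset diabetes. The vehicle libraries gave 24.9%, 10.97% and 13.85% on days 2, 3 and 4. In CD4-gated cells, likewise thinned to 2000 UMIs, the share was 1.19% in active and 1.54% in onset. Within the 368 Ccl5-positive cells of active and the 625 of onset diabetes, several effector genes differed, by unequal amounts. Ifng was at 102 CPM in active and 451 in onset Ccl5-positive cells, 4.41-fold lower (3.86 to 5.05), with vehicle at 103, 165 and 489. Ccl3 and Ccl4 were 4.00-fold and 3.63-fold lower there, and Tnf and Xcl1 1.76-fold and 1.66-fold. Ctla4 was 4.32-fold lower, and Nr4a2, an orphan nuclear receptor induced by receptor signalling, 5.85-fold lower (4.33 to 8.06). Granzyme genes differed among themselves. Gzmb, which encodes granzyme B, was at 41.1 and 41.0 CPM and Prf1 at 142.5 and 139, while Gzmk was 1.76-fold lower (1.54 to 2.01) and Gzma 2.26-fold lower (1.74 to 2.96), at 31.2 and 70.5 CPM. Gzma rested on few cells, 8 of 2884 active and 14 of 2210 onset CD8-gated cells holding a UMI after thinning.

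Ccl5-positive cells of active diabetes held more of most naive and central memory transcripts. Bach2, a repressor that keeps memory cells undifferentiated, was at 34.4 CPM in active and 12.7 in onset Ccl5-positive cells, with vehicle at 28.9, 31.9 and 22.8. Ccr7, the chemokine receptor for entry to lymph nodes, was at 78.6 and 48.1 CPM, and Tcf7 at 230 and 164. In Ccl5-negative cells Bach2 was at 88.5 and 85.5 CPM and Tcf7 at 342 and 348. Of the 12 naive and central memory genes, 2 were at least 2-fold higher in active Ccl5-positive cells and 0 in Ccl5-negative ones, with median log2 ratios of 0.50 and -0.04. Igfbp4 of that list went the other way in Ccl5-positive cells, at 26.45 CPM in active and 52.0 in onset (1.97-fold lower, 1.47 to 2.66). Il7r was near equal there, at 446.5 and 424 CPM. Cx3cr1 and Klrg1, markers of effector CD8 cells, were at 33.6 and 10.7 CPM in active and 14.95 and 3.25 in onset Ccl5-positive cells. Klrg1 rested on 27 and 10 UMIs, under the 20 CPM needed to compare.

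Each CPM difference of the CD8 gate can be written as a part from the sizes of the classes and a part from levels within them. This is arithmetic on classes set by Ccl5, which was itself 1.63-fold lower within Ccl5-positive cells, so the parts do not measure cell number apart from RNA per cell. Class size gave 33.4% of the Ifng difference and 37.7% of that in Ccl4, and levels within Ccl5-positive cells 61.0% and 61.3%. For S100a4 and Itga1 class size gave 64.7% and 61.6%. Counted over all genes, 27 of 5685 (0.475%) were at least 2-fold higher and 47 (0.827%) lower in active Ccl5-positive cells, and 13 of 5098 (0.255%) higher and 16 (0.314%) lower in Ccl5-negative ones. Of the 50 genes lower in the whole CD8 gate, 27 were also 2-fold lower within Ccl5-positive cells, 15 within Ccl5-negative cells, where 28 were abundant enough to compare, 14 in both and 22 in neither.

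**Figure D3:**
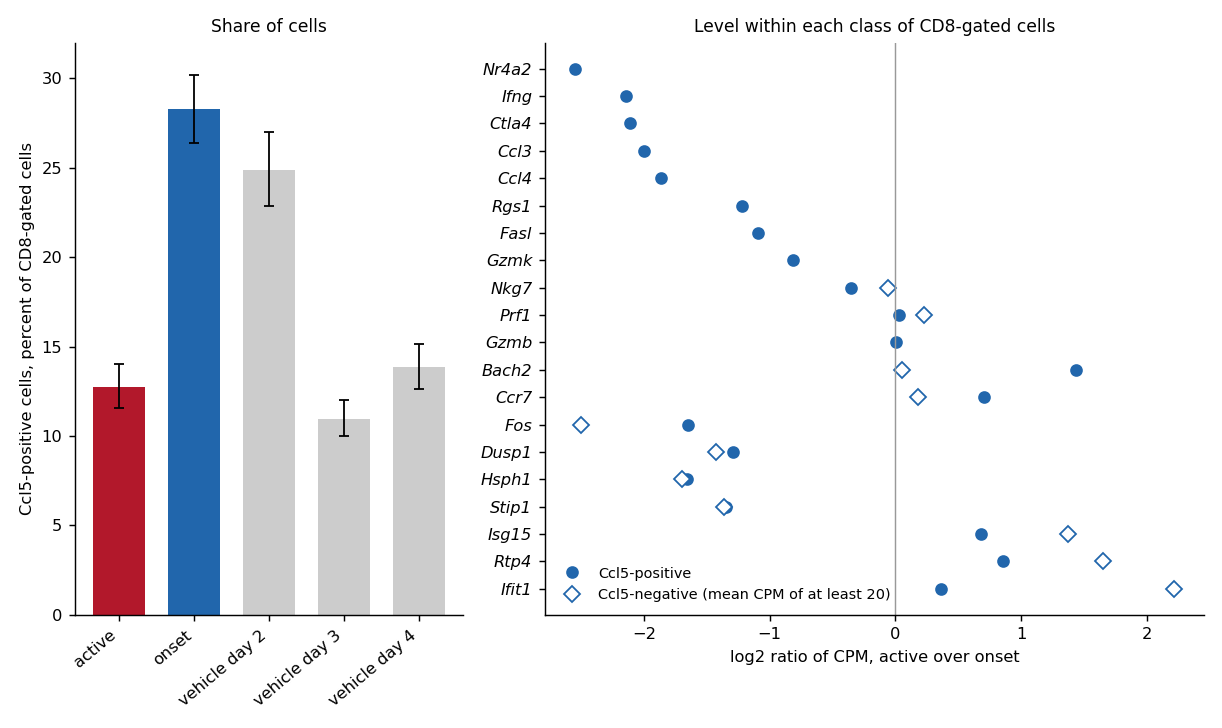
Left, Ccl5-positive cells as a percent of CD8-gated cells in 5 libraries, with 95% exact intervals of counting error. Right, log2 ratio of active over onset within Ccl5-positive (filled) and Ccl5-negative (open) CD8-gated cells, the latter where the mean was at least 20 CPM. Ifng, Ccl3, Ccl4 and Ctla4 lie near -2 within Ccl5-positive cells while Prf1 and Gzmb lie at 0, and Ifit1, Rtp4 and Isg15 lie further right in Ccl5-negative cells.

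Summed markers of gamma delta T and natural killer cells were lower in active CD8-gated cells, as the effector genes were, although the sort for CD3 and TCR-beta would remove both cell types. The 5 gamma delta T cell markers summed to 57.7 CPM in active and 102 in onset CD8-gated cells, against 24.0 to 47.9 in vehicle, with the constant-region genes Tcrg-C1, Tcrg-C2 and Tcrg-C4 lower in active and Tcrg-C1 at 0.495 and 10.7. Trdc, which defines those cells, was higher in active, at 7.64 and 5.24 CPM, as was Sox13 on 5 and 1 UMIs. The 5 natural killer markers summed to 22.1 and 51.3 CPM, against 11.1 to 36.2 in vehicle, of which Klre1 gave 18.6 and 47.6, while Ncr1 and Klrb1c were at or under 1.39 CPM in both. The part of these cells in the effector difference was not tested. B cell markers summed to 183 CPM in both libraries of the CD4 gate and to 212.5 and 183 in the CD8 gate. Exocrine pancreas markers summed to 10.2 and 19.9 and to 18.3 and 38.8. Myeloid markers summed to 159 and 140 CPM in the CD4 gate and to 115.5 and 152 in the CD8 gate. Of these, Cst3 gave 126 and 132 CPM in the CD4 gate. Lyz2 was at 23.4 and 0.325 CPM there, on 451 UMIs in active and 9 in onset. Of the 50 genes lower in CD8-gated cells, 37 (74%) stand in the authors' deposited table for the cluster named CD8 TRM TEM, 5.27% of the 702 genes it lists. The cluster's comparison group is not stated, and 11.5% of all genes compared are in that list. The same 50 genes overlap other clusters of the authors' deposited table, with 22 (44%, 5.14% of its 428) in CD4 Th17 beside 6.79% of all genes compared and 17 (34%, 3% of its 567) in CD4 Treg beside 8.98%. The table was made from cells of this series, so it is not independent of these libraries.

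Interferon response genes were higher in active diabetes in both gates. The letters common to interferon-stimulated response elements, GAAANNGAAA or TTTCNNTTTC on the other strand, occur near the start of several of them, so the stretch before the gene start is shown for 3 counted in both gates. Sequences are from RefSeq on GRCm38.p6, 200 bases up to the start, 5′ to 3′ on the gene's strand, with matches in capitals and overlapping matches joined. Ifit1 is at chr19:34640689-34640888 on the plus strand, Isg15 at chr4:156200819-156201018 on the minus strand and Ddx60 at chr8:61927887-61928086 on the plus strand.
Ifit1: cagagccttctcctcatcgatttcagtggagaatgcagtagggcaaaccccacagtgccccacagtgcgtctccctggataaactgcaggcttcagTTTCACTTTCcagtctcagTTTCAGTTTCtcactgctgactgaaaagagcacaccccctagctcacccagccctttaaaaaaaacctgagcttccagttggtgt
Isg15: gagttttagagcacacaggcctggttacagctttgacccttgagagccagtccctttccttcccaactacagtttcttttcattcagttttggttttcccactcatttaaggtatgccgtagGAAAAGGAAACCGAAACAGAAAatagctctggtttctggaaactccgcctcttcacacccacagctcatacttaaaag
Ddx60: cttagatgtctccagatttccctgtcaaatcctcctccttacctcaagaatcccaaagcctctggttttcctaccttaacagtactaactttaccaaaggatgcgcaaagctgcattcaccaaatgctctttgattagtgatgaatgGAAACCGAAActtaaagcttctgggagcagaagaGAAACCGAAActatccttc
In windows of 300 bases around the start (250 before, 50 after), 3.44% of 32851 promoters held a match. Of 20 interferon genes, the type I interferon list with Ddx60, Rnf213, Lgals3bp and Slfn5 added after their values were seen, 15 matched an entry by symbol and 9 held a match, among them 4 of the 7 with an entry that were at least 2-fold higher in a gate. A match is a run of letters, not a shown binding site.

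Ifit1, which encodes an antiviral protein that binds foreign RNA caps, was at 63.0 CPM in active and 9.90 in onset CD4-gated cells, with vehicle at 12.8, 8.29 and 5.96. The difference was 6.36-fold (5.58 to 7.28). In CD8-gated cells it was at 49.6 and 18.1 CPM, 2.74-fold (2.38 to 3.17), with vehicle at 14.3, 8.46 and 6.425. Isg15, a ubiquitin-like modifier, was at 117 and 35.9 CPM in CD4-gated cells, 3.26-fold higher (3.02 to 3.52), and at 105 and 44.8 in CD8-gated cells, 2.35-fold higher (2.15 to 2.58). Rtp4 was 3.94-fold higher in the CD4 and 2.67-fold higher in the CD8 gate. In all 6 of these pairs active lay above every vehicle library. Irf7, the transcription factor that amplifies the response, was at 52.9 and 24.0 CPM in CD4-gated cells (2.20-fold, 2.00 to 2.43) and at 48.9 and 33.1 in CD8-gated cells (1.48-fold, 1.32 to 1.66). The RNA helicase gene Ddx60 was 2.52-fold and 2.40-fold higher, the ubiquitin ligase gene Rnf213 2.20-fold and 1.81-fold, and Slfn5 1.92-fold and 2.03-fold.

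As a list of 16 type I interferon genes, 9 were compared in the CD4 gate, 4 of them at least 2-fold higher and all 9 above 0, with a median log2 ratio of 0.97. In the CD8 gate 10 were compared, 3 at least 2-fold higher and 9 above 0, with a median of 0.49. The gene below 0 was Isg20, at 22.8 and 32.5 CPM. Over all genes compared, 0.326% in the CD4 and 0.229% in the CD8 gate were 2-fold higher. Onset CD8-gated cells held more Ifit1 than onset CD4-gated cells, 18.1 against 9.90 CPM, while active cells of the 2 gates were at 49.6 and 63.0. Split by Ccl5, Ifit1 was at 49.1 CPM in active and 10.5 in onset Ccl5-negative cells, and at 54.5 and 42.25 in Ccl5-positive cells. Rtp4 followed the same order, 43.7 and 13.9 CPM in Ccl5-negative and 44.6 and 24.7 in Ccl5-positive cells. Of the interferon list, 3 of 9 genes were 2-fold higher in Ccl5-negative cells and 0 of 12 in Ccl5-positive cells, with medians of 0.77 and 0.25.

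Cells with an Ifit1 UMI and cells with an Isg15 UMI were each a minority, and a larger one in active diabetes. With every cell thinned to 2000 UMIs, 7.96% (7.01 to 8.996%) of active and 77 of 5133, or 1.5% (1.19 to 1.87%), of onset CD4-gated cells held an Ifit1 UMI, and 15.4% and 3.45% without thinning. In CD8-gated cells the thinned shares were 7.59% and 3.35%. For Isg15 the thinned shares were 14.5% and 6.14% in CD4-gated cells. Ifi27l2a, a more abundant gene of the list, was found more widely after thinning. It was in 62.3% of active and 50.4% of onset CD4-gated cells, and in 45.2% and 42.8% of CD8-gated cells. No cell type without these genes was sorted, so the part of free RNA in these shares was not measured. Genes induced by interferon-gamma differed less. Of 13 GTPase and related genes, 10 were compared in the CD4 and 11 in the CD8 gate, with 0 at least 2-fold apart and medians of 0.57 and 0.35. Gbp4 was at 83.3 and 64.5 CPM in active and onset CD4-gated cells and Gbp6 at 36.8 and 21.4. Class I presentation genes had medians of 0.03 and -0.07, and B2m was at 2583 and 2205 CPM in the CD4 gate. Of the 17 genes higher in CD4-gated cells, 7 (41.2%) stand in the authors' deposited table for the cluster named CD4 Th1, 8.54% of the 82 it lists, beside 1.36% of all genes compared. For genes higher in CD8-gated cells the count in the authors' deposited table for that cluster was 5 of 12 (41.7%, 6.1% of the 82).

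Chaperones were lower in active diabetes to a like degree in both gates. Hsph1, which encodes the large chaperone Hsp105, was at 63.3 CPM in active and 206 in onset CD4-gated cells, and at 67.4 and 219 in CD8-gated cells, 3.25-fold lower in each. Vehicle libraries held 36.7 to 60.5 CPM in the CD4 and 43.9 to 69.6 in the CD8 gate, so onset lay far above them and active at their upper edge. Stip1, the co-chaperone that links Hsp70 with Hsp90, was at 67.6 and 167 CPM in CD4-gated and at 70.3 and 178 in CD8-gated cells. The Hsp90 co-chaperone genes Chordc1 and Ahsa2 were 2.13-fold and 2.38-fold lower in the CD4 and 2.09-fold and 3.18-fold lower in the CD8 gate. St13, another Hsp70 cofactor, was at 117 and 241 CPM in the CD4 gate. The abundant chaperones differed less. Hspa8, the constitutive Hsp70, was at 1261 and 2277 CPM in CD4-gated cells and Hsp90ab1 at 1387 and 2713.

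Of 12 heat shock genes, 9 were compared in the CD4 and 8 in the CD8 gate, every one of them below 0. In each gate 1 passed 2-fold, and the medians were -0.80 and -0.78. Among all genes compared, 45.4% and 36.0% lay above 0, and 0.23% and 0.953% were 2-fold lower. Hspa1a, the strictly inducible Hsp70, which shares sequence with Hspa1b, differed little, at 21.7 and 26.2 CPM in CD4-gated cells, with vehicle at 6.11, 0.853 and 3.09. Hsph1 UMIs were found in 11.04% of active and 31.9% of onset CD4-gated cells and in 11.2% and 32.4% of CD8-gated cells after thinning. Both Ccl5 classes shared the difference, with Hsph1 3.15-fold lower in Ccl5-positive and 3.25-fold lower in Ccl5-negative CD8-gated cells. The start of Chordc1 is shown for the letters common to heat shock elements, GAANNTTCNNGAA or TTCNNGAANNTTC, at chr9:18292107-18292286 on the plus strand of GRCm38.p6, 160 bases before and 20 after the start, with overlapping matches in capitals.
Chordc1: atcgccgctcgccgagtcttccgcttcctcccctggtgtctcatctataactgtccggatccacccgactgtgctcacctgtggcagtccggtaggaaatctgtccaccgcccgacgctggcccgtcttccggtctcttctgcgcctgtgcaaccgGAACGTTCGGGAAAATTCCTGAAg
In 300-base windows, 0.603% of promoters held this motif. Of 18 chaperone genes, the list with Stip1, Chordc1, Ahsa2, St13, Ahsa1 and Fkbp4 added after their values were seen, 14 had an entry and 4 a match, namely Hsph1, Hspd1, Hspe1 and Chordc1. The windows of Hspd1 and Hspe1 overlap on opposite strands and hold the same matches, so the 4 are not separate promoters.

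Several early response genes were lower in active diabetes too, more so in CD8-gated cells. Fos, an inducible member of the AP-1 factor, was at 154 CPM in active and 452 in onset CD4-gated cells (2.94-fold lower, 2.83 to 3.06), with vehicle at 320, 342 and 503. In CD8-gated cells it was at 74.3 and 377 CPM (5.08-fold lower, 4.8 to 5.37), with vehicle at 172, 216 and 605. Here active was the library that stood apart, below all 3 vehicle libraries in both gates. Junb was at 769 and 1096 CPM in the CD4 and at 374 and 841 in the CD8 gate, and Dusp1, a phosphatase that ends kinase signals, at 66.7 and 121 and at 30.8 and 83.2. Tnfaip3, which encodes the NF-kB inhibitor A20, was at 38.2 and 95.8 CPM in CD4-gated and at 34.9 and 107 in CD8-gated cells, against 60.8 to 657 in vehicle over both gates. Dusp5 was 2.32-fold lower in the CD4 and 3.57-fold lower in the CD8 gate, and Gadd45b 2.32-fold and 2.82-fold. The day 4 vehicle library was the highest of the 5 for Fos, Junb, Dusp1, Tnfaip3 and Dusp5 in both gates, with Dusp5 at 136 CPM in its CD4-gated cells.

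Other early response, receptor signal and stress genes moved by unequal amounts. Of 10 AP-1 and early response genes compared in each gate, 1 in the CD4 and 3 in the CD8 gate were 2-fold lower. In both gates 0 were 2-fold higher, and the medians were -0.13 and -0.43. In the CD4 gate 3 of the 10 lay above 0. Over all genes compared, 0.23% in the CD4 and 0.953% in the CD8 gate were 2-fold lower. Jun was at 344.5 and 312 CPM in CD4-gated cells, higher in active, and at 192 and 246 in CD8-gated cells, lower in active. Egr1, an early target of receptor signalling, was at 91.7 and 92.6 CPM in CD4-gated and 65.5 and 73.2 in CD8-gated cells. Nr4a3, another such target, was at 13.5 and 31.2 CPM in CD8-gated cells, 2.31-fold lower (1.99 to 2.69). In NF-kB feedback genes the median was -0.22 in the CD4 and -0.36 in the CD8 gate, with Nfkbia, the first inhibitor induced, at 194 and 271 CPM in CD4-gated cells. Ppp1r15a, a phosphatase subunit of the stress response, was at 51.8 and 117 CPM in CD8-gated cells, and Klf6, an early-response transcription factor, at 84.8 and 204.

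**Figure D4:**
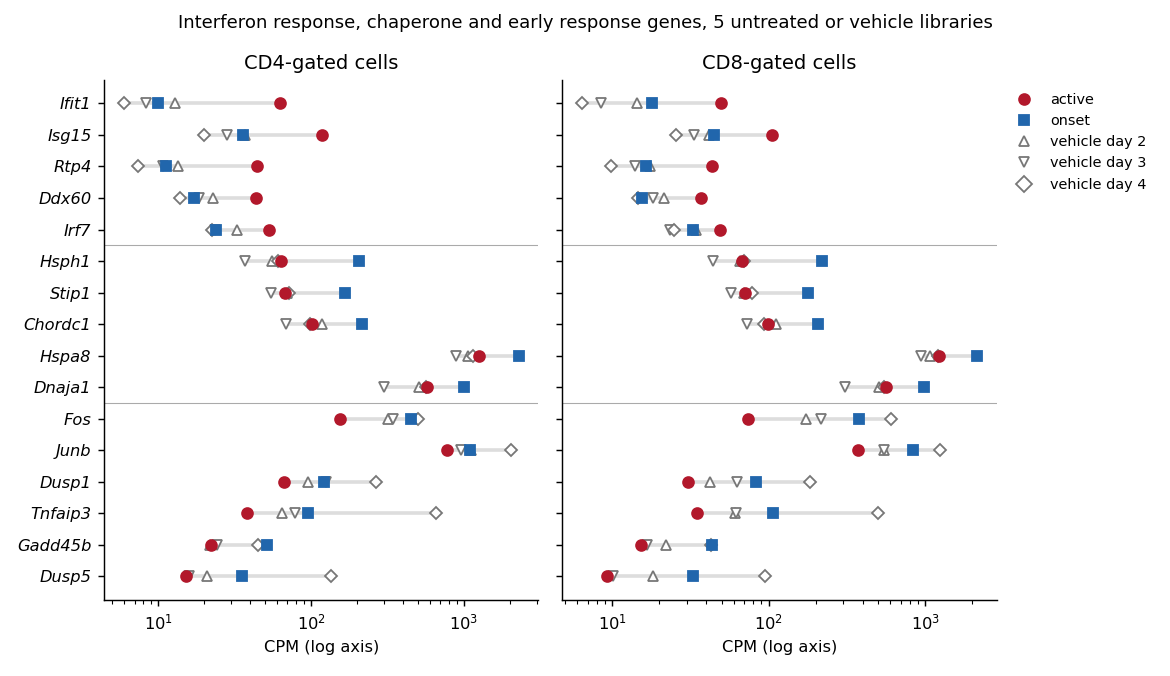
CPM on a log axis in CD4-gated (left) and CD8-gated (right) cells for interferon response, chaperone and early response genes, separated by lines, with 1 point per library. Active lies alone on the right for interferon genes, onset alone on the right for chaperones, and active on the left for Fos, Junb, Dusp1 and Tnfaip3.

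For a smaller group that was higher in active diabetes, onset lay below all 3 vehicle libraries. Hnrnpa0, an RNA-binding protein, was at 366 CPM in active and 134 in onset CD4-gated cells, with vehicle at 393, 205 and 649. Pabpn1, which controls the length of poly(A) tails, was at 153 and 70.6 CPM with vehicle at 124 to 170, and the centromere protein gene Cenpb at 31.1 and 10.1 with vehicle at 22.3 to 29.0. Purb, a single-strand nucleic acid binding protein, was at 174 and 83.5 CPM in the CD4 gate. The CD8 gate gave near the same values, with Hnrnpa0 at 327 and 122.5 CPM and Pabpn1 at 150 and 68.4. A few others passed 2-fold in the CD8 gate and were at least 1.5-fold higher in the CD4 gate, where their mean was under 20 CPM. Ms4a4c, a membrane protein gene of the MS4A family, was at 92.7 and 37.3 CPM with vehicle at 26.9 to 96.9, and at 14.9 and 8.02 in the CD4 gate. Art2b, which encodes an ADP-ribosyltransferase of the T cell surface, was at 76.1 and 33.2 CPM in the CD8 and 25.0 and 12.9 in the CD4 gate, and the phosphodiesterase gene Pde2a at 56.6 and 27.3 and at 15.8 and 8.38.

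Set against the vehicle libraries, it was more often onset than active that stood apart among the genes lower in CD8-gated cells. Of these 50 genes, active lay within and onset above the vehicle range for 29. Active lay below and onset within for 10, active below and onset above for 9, and both within for 2. Taken 1 vehicle library at a time, 23 of the 50 were nearer to active in day 2, 45 in day 3 and 29 in day 4. Among the 17 genes higher in CD4-gated cells, which include Ifit1, Isg15 and Irf7, the order turned. Active lay above and onset within the vehicle range for 8, active within and onset below for 5, and active above and onset below for 4. The comparison rests on 3 libraries, 2 of them at odds with their label of sex.

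Some calls rest on few cells or on reads that may be shared. Hbb-bs and Hba-a1, globin genes of red cells, were at 92.4 and 50.7 CPM in active and 0.289 and 0.181 in onset CD4-gated cells, and paralogs may share their reads. One active cell held 2890 of the 3123 globin UMIs of that gate, or 92.5%, and without it 15 genes were higher in CD4-gated cells instead of 17. Globin UMIs were found in 151 of the 2963 active CD4-gated cells and in 9 of the 5163 onset cells. mt-Atp8 and mt-Nd4l, which overlap mt-Atp6 and mt-Nd4, were at 269 and 754 CPM and at 265 and 701 in CD4-gated cells, while mt-Nd3 was higher in active, at 460 and 234. Gm10076, Gm12840, Rpl9-ps6 and AY036118 resemble other genes or ribosomal RNA, and their counts are uncertain. The mitochondrial share of UMIs was 4.03% and 3.67% in the median CD4-gated cell of active and onset.

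Several processes showed little difference between active and onset among the genes abundant enough to compare. Txnip, which rises with glucose in many cells, was at 288 CPM in active and 312 in onset CD4-gated cells and at 262 and 270 in CD8-gated cells. Of 16 glycolysis genes, 12 were compared in the CD4 and 13 in the CD8 gate, 0 were 2-fold apart and the medians were -0.20 and -0.17. Among 10 glucocorticoid response genes 7 were compared, and Dusp1 in the CD8 gate was the only one 2-fold apart. Foxp3, the factor of regulatory T cells, was at 12.4 and 12.6 CPM in CD4-gated cells, under the 20 CPM needed to compare. After thinning, 1.83% (1.38 to 2.38%) of active and 1.89% (1.535 to 2.30%) of onset CD4-gated cells held a Foxp3 UMI, against 0.381% and 0.724% of CD8-gated cells. Of 15 cell cycle genes, only 4 were compared in each gate, with medians of -0.03 and -0.05. After thinning, 0.485% of active and 1.22% of onset CD8-gated cells held an Mki67 UMI, and 0.832% and 1.63% a Top2a UMI. For Pclaf the shares were 0.451% and 0.407%. The 77 oxidative phosphorylation genes compared had medians of -0.16 and -0.17. Of these, 67 in the CD4 and 65 in the CD8 gate lay below 0, a small shift in most members. Beside them, all genes compared had medians of -0.02 and -0.08, with 45.4% and 36.0% above 0.

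The pooled level of a gene over both gates changes with its level in each gate and with the proportion of the gates. CD8-gated cells held 53.5% of gated UMIs in active and 31.9% in onset. For Cd4 and Cd8a, which set the gates, the proportions alone gave 90.4% and 129% of the pooled difference. For Ccl5 the pooled levels were 671 CPM in active and 1322 in onset, and the part within CD8-gated cells was 174% of the difference, since the larger CD8 share in active took back 76.7%. For Cxcr6 the parts were 306% within CD8-gated cells and -209.8% from the proportions. For Fos the parts were 53.9% within CD4-gated cells, 40.9% within CD8-gated cells and 5.24% from the proportions, and for Hsph1 56.4%, 44.9% and -1.31%. Ifit1 had 70.2% of its difference within CD4-gated and 31.1% within CD8-gated cells, and Irf7 69.4% and 28.3%. The differences in Ccl5 and Cxcr6 thus lay within CD8 cells, those in Ifit1 and Irf7 more within CD4 cells, and that in Hsph1 in both.

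**Figure D5:**
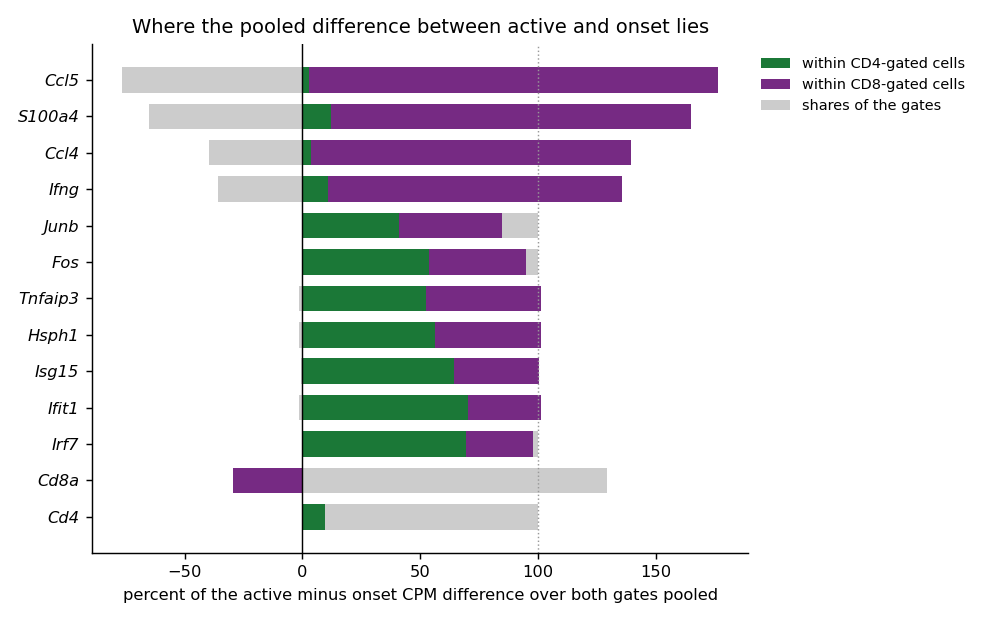
For 13 genes, the percent of the active minus onset difference in CPM, pooled over both gates, that lies within CD4-gated cells (green), within CD8-gated cells (purple) or in the proportions of the gates (grey), which sum to 100 (dotted line). Ccl5, S100a4, Ccl4 and Ifng are carried by CD8-gated cells against the proportions, Hsph1 and Tnfaip3 by both gates, and Cd4 and Cd8a by the proportions.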

How the data were processed

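Single-cell RNA counts of T cells sorted from NOD mouse pancreas were analysed in 8 libraries, with the active and onset libraries compared and the vehicle libraries as a yardstick. The authors deposited raw UMI counts per gene and barcode, made with Cell Ranger 6.0.0 per the file headers and 6.1.2 per the submitters' processing notes, which also name Seurat. Which genome build was used is not given in the sources used here. In the authors' deposited table of cluster markers, values are log2 fold changes whose comparison group is not stated.

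Counts were summed over CD4-gated and CD8-gated cells and divided by the gate's total (CPM). Genes with a mean of at least 20 CPM were compared by log2 ratio and counted at 2-fold, without a test, since each group had 1 library. Intervals are exact 95% intervals of counting error, and UMIs correct for copied reads only. The ratios and the 2-fold count were tried on simulated counts that held no spread between cells or mice, and the intervals were not tested. Doublets were not removed in the values reported.

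Members, lists and the naming rule (the 10 highest and 10 lowest ratios per gate, the 5 largest gate differences each way, list members at least 2-fold apart with up to 4 examples, and a set of control genes) were chosen with earlier results of these data known. The Ccl5 split, the co-chaperone and further interferon genes, Klf6, Ppp1r15a, Xcl1, Ms4a4c, Art2b, Pde2a and the globin check were chosen after their values were seen. Promoters came from RefSeq on GRCm38.p6. Alternatives covered the gates, cell filters, doublets, scaling (edgeR 4.0.16 TMM in R 4.3.3), thresholds and depth. Python 3.11.15, numpy 2.4.6, scipy 1.17.1, scanpy 1.11.5, pandas 2.3.3 and matplotlib 3.10.9 were used.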

Additional observations from a re-analysis of the deposited data

How the results depend on the processing

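No paired analysis was possible because each group had 1 library, and no library could be left out. The counts of genes moved most with their thresholds. Given as higher in CD4, lower in CD4, higher in CD8 and lower in CD8 cells, a 1.5-fold threshold gave 86, 58, 67 and 159 genes and a 3-fold threshold 6, 1, 0 and 19. A minimum mean of 5 CPM gave 44, 29, 38 and 106. At a minimum of 50 CPM, 7 genes were higher in CD4 cells, 6 higher in CD8 cells and 27 lower in CD8 cells. With mitochondrial, ribosomal and receptor segment genes left out of the total, 25 genes were higher in CD8 cells, among them all 12 of those reported. That setting also let in less abundant genes, since the minimum CPM was taken on the smaller total. The CD8 share of gated cells in active diabetes was 47.5% with a limit of 5% mitochondrial UMIs, 60.2% with at least 2 UMIs for each subset and 60.4% after thinning, and in onset 43.05% and 41.4% under the last 2 settings. Of 836 recomputed ratios of named genes that passed 2-fold, 761 stayed within the counting interval of the reported value, 75 moved outside it and 0 reversed. Of 598 recomputed list medians, 548 stayed within 0.1, 49 moved further and 1 reversed, the median of the receptor signal list in CD4 cells at 0.0136 with a minimum of 50 CPM, where 2 genes were left. Depth limits genes under 20 CPM, Foxp3 among them, where few UMIs lie behind each ratio.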
